A study of Arabidopsis thaliana with 4 samples.

Results

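Tetraspanins are small proteins that cross the membrane several times, expose a large extracellular loop and assemble, with each other and with partner proteins, into membrane microdomains. In plants they sit at the plasma membrane, at plasmodesmata and on secreted vesicles, and single members are known for roles in leaf and vein patterning, organ growth, root development, reproduction and defence. The family was read here in Arabidopsis thaliana seedlings as every probe set annotated to exactly 1 gene whose symbol is TET and a number, with a signal above a floor of 91.4 on at least 1 array. The floor is the 40th percentile of all signals. This left 8 genes, TET2, TET3, TET5, TET6, TET7, TET8, TET9 and TET10, each with 1 probe set. Of all 13356 genes with a probe set of exactly 1 gene, 8196 exceeded the floor on at least 1 array. Of the 17 tetraspanin genes in the RefSeq gene table, 15 had a probe set. TRN2, which carries the synonym TET1 and is required for symmetric leaves and normal venation, and TET17 have no probe set listed and were not analysed here.

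The other 7 genes stayed below the floor on all 4 arrays, with signals between 1.72 and 62.8. They are TET4, TET11, TET12, TET13, TET14, TET15 and TET16. TET11 and TET12 are known from the sperm cells of pollen, and TET13 from primary and lateral root growth. The member just inside the floor was TET6, whose highest signal was 115, and the gene just outside was TET14 at 62.8. A signal below the floor is a bound only, so nothing is said of these 7 genes beyond that.

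Wild type seedlings of Landsberg erecta (Ler) and seedlings of a transgenic line, GR-REV, were cultured in shaken flasks of liquid medium under continuous light. GR-REV carries REVOLUTA, an HD-ZIPIII transcription factor of leaf polarity and vascular development, fused at its amino terminus to the glucocorticoid receptor domain, mutated in its microRNA site and driven by the constitutive 35S promoter. Such a fusion is held out of the nucleus until a glucocorticoid binds. For 1 h, dexamethasone at 50 µg/ml, dissolved in ethanol (0.1% final), was given to 1 flask per genotype, and ethanol alone, called mock, to another. RNA of each flask was hybridized to 1 Affymetrix ATH1 array, which gave 4 arrays and 1 per group. The labels do not say how many independent GR-REV lines were made, and whole seedlings were used, so fewer cells of a type and less RNA per cell cannot be told apart. The question named for the study was which genes lie immediately downstream of REVOLUTA. For the 2 GR-REV arrays, titles and treatment protocols give one treatment and source names the opposite one. Groups here follow titles and protocols, and with the source names every difference between these 2 arrays turns its sign. The comparison of genotypes with treatments pooled does not depend on this, whereas the comparison within each treatment and the test with treatment as a term do.

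Signals were scaled by the authors to a common mean, and median signals were between 156 and 181. The wild type mock array stood apart in the share of its signals above the floor, 62.9% against 58.9% to 59.2% on the others, and in its 25S rRNA control signal, 293 against 768 to 929. The ratio of the 3′ to the 5′ control probe set of ubiquitin was 1.57 and 1.67 on the wild type arrays and 2.25 and 2.21 on the GR-REV arrays. For GAPDH it was 1.78 and 1.60 in wild type mock and dexamethasone and 1.46 and 1.29 in GR-REV, the other way. In a second set of control probe sets the genotypes overlapped for both, at 1.02 and 0.894 (wild type mock and dexamethasone) and 1.01 and 1.11 (GR-REV) for ubiquitin, and 0.817 and 0.974 against 0.997 and 0.907 for GAPDH. For actin the first set gave 9.33 in wild type mock and 10.1 in GR-REV dexamethasone, against 13.8 in GR-REV mock and 13.9 in wild type dexamethasone. The second set gave lower ratios in the same split, 2.17 and 1.95 against 2.92 and 2.86. Of the green-tissue markers, LHCB4.1, LHCB4.2, LHCB4.3 and RCA were listed, and all 4 were above the floor on every array. Their summed signal was 48028 to 48873 on 3 arrays and 60892 in wild type dexamethasone. The single markers did not all follow the sum. In wild type dexamethasone LHCB4.1 and RCA were highest, at 22897 and 28804, and LHCB4.2 was lowest, at 6909 against 7394 to 12227. LHCB4.3 was at 2031 and 2282 in wild type mock and dexamethasone and at 381 and 285 in GR-REV. Of the root markers PYK10 was above the floor on every array, while EXPA7 stayed below the floor and EXPA18 exceeded it on 1 array, at 92.3 in GR-REV mock. The summed root signal was 10259 in wild type dexamethasone and 14332 to 16662 on the other arrays. No flower or pollen marker of the list was matched.

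No tetraspanin gene passed the test of genotype with treatments pooled, although most had signals that did not overlap between the genotypes. The 2 GR-REV arrays lay wholly above the 2 wild type arrays for TET3 and TET7, and wholly below them for TET2, TET6, TET8, TET9 and TET10. Only TET5 overlapped. These 7 of 8 members compare with 43.1% of all probe sets that exceeded the floor on 1 array or more, 20.7% with GR-REV higher and 22.4% with GR-REV lower. Among the 5 members measured above the floor on all 4 arrays, 5 did not overlap, against 45.7% of such probe sets. Genotype was tested with limma, 2 GR-REV against 2 wild type arrays, for the 14034 probe sets that exceeded the floor on 2 or more arrays. No member of the 7 tested passed a Benjamini-Hochberg adjusted p of 0.05, which 1.77% of all tested probe sets did. At an unadjusted p under 0.05 there were 4 members, TET2, TET3, TET8 and TET9, against 16.4% of all tested. With treatment as a term in the same test, 2 members were called, TET3 and TET9, against 7.1% of all probe sets tested. With the treatments of the source names in that term, 0 members were called, against 3.23% of all. TET6 and TET9 entered these tests only through their wild type arrays, with both GR-REV values set to the floor, so counts that include them support nothing.

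**Figure D1:**
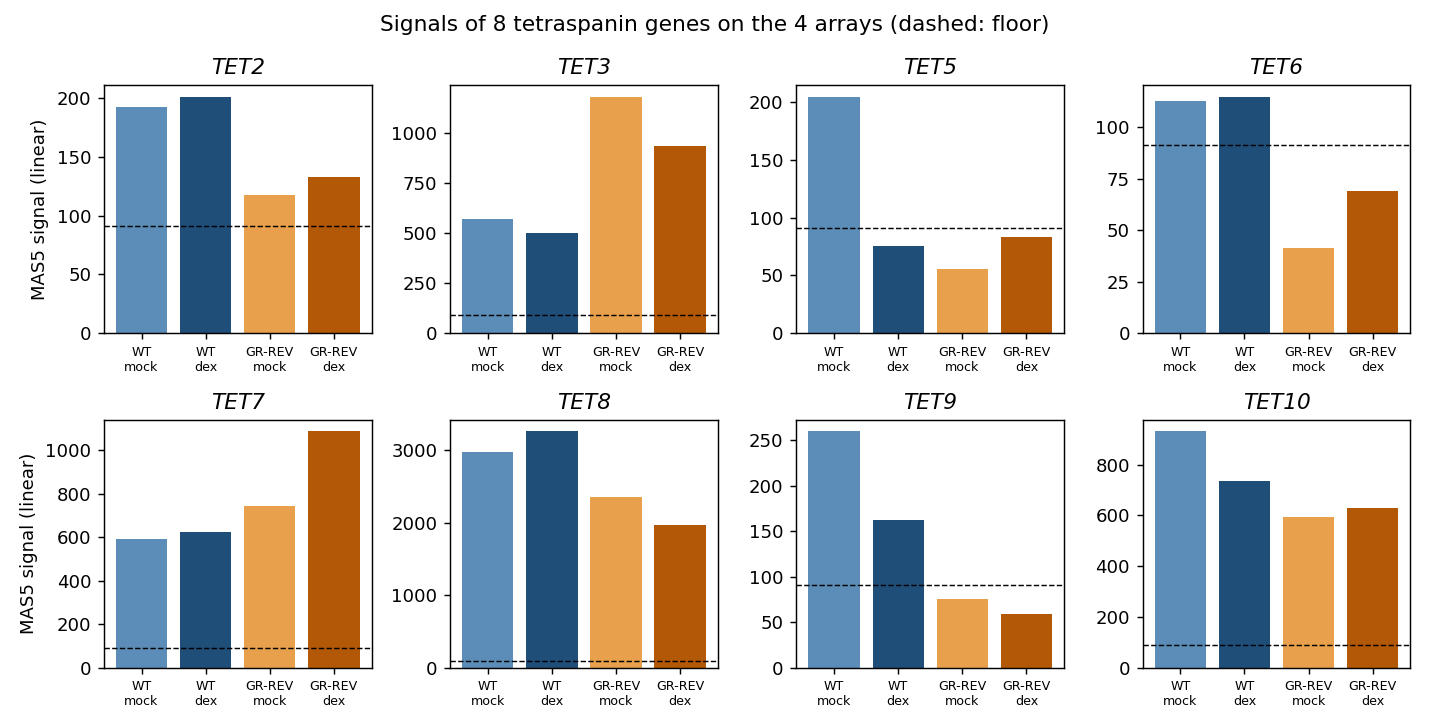
Signal of each of the 8 tetraspanin genes (linear MAS5 units, vertical axis) on the 4 arrays, wild type (WT) in blue and GR-REV in orange, 1 bar per array, with the floor of 91.4 as a dashed line. TET3 and TET7 are highest in the GR-REV arrays, TET2, TET6, TET8, TET9 and TET10 in the wild type arrays, and TET5 exceeds the floor in wild type mock alone.

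TET3, a tetraspanin found at plasmodesmata, the channels between plant cells, had the widest difference toward GR-REV. Its signal was 571 (mock) and 502 (dexamethasone) in wild type, against 1180.0 in GR-REV mock and 936 in GR-REV dexamethasone. Both GR-REV flasks therefore held a higher level than both wild type flasks, with or without the hormone. The difference was 0.97 ± 0.20 (SE, 2 against 2 arrays) on the log2 scale, or 1.96-fold, with a 95% interval of 0.47 to 1.48. It lay above 96.2% of all tested probe sets. Its adjusted p in limma was 0.0913. With treatment as a term it was 0.0192 by the titles and 0.0937 by the source names, and over all alternative settings it ranged from 0.0192 to 0.315. The difference was 1.05 in the mock arrays and 0.90 in the dexamethasone arrays by the titles, and 0.71 and 1.23 by the source names.

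TET7 was the other member higher in GR-REV. Its signals were 589.9 and 621 in wild type mock and dexamethasone, 744 in GR-REV mock and 1085 in GR-REV dexamethasone. The 2 wild type flasks lay close together, and the array titled GR-REV dexamethasone held the highest level. The genotype difference was 0.57 ± 0.24 (SE) on the log2 scale, or 1.48-fold, with a 95% interval of -0.01 to 1.15 and an adjusted p of 0.314 in limma. It was 0.34 in the mock arrays and 0.80 in the dexamethasone arrays by the titles, and 0.88 and 0.26 by the source names. Without the array titled GR-REV dexamethasone it was 0.297.

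On the other side, TET9, which with TET8 is known from vesicles that plant cells secrete at sites of fungal infection, had wild type signals of 259 in mock and 162 in dexamethasone. In GR-REV it was below the floor on both arrays, at 76.0 in mock and 58.7 in dexamethasone. Against the floor it was at least 2.25-fold lower in GR-REV over both treatments, at least 2.84-fold in the mock arrays and at least 1.78-fold in the dexamethasone arrays. As TET9 entered the test only through its wild type arrays and its GR-REV values were set to the floor, the fitted difference of -1.17 ± 0.28 (SE, limma) holds no spread among GR-REV flasks. Its adjusted p was 0.122 in limma, 0.0473 with treatment as a term by the titles and 0.0795 by the source names, with 0.0473 to 0.438 over the alternative settings. Without either wild type array it could not be fitted.

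TET8, the tetraspanin commonly used to mark plant extracellular vesicles, was well above the floor on every array. Its signals were 2978 and 3258 in wild type mock and dexamethasone, and 2355 and 1962 in GR-REV mock and dexamethasone. GR-REV was lower in both treatments. The difference was -0.54 ± 0.17 (SE) on the log2 scale, with a 95% interval of -0.97 to -0.10 and an adjusted p of 0.217 in limma.

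TET2 had signals of 193 and 201 in wild type mock and dexamethasone and of 118 and 133 in GR-REV. Both pairs lay tight within a genotype and apart between genotypes. Its difference was -0.65 ± 0.21 (SE) on the log2 scale, with an adjusted p of 0.214 in limma, and below it lay 7.47% of all tested probe sets. TET10 had signals of 931 (mock) and 736 (dexamethasone) in wild type and of 594 and 628 in GR-REV. The wild type dexamethasone array sat between wild type mock and the GR-REV arrays. The TET10 difference was -0.44 ± 0.20 (SE), with a 95% interval of -0.93 to 0.06 and an adjusted p of 0.358 in limma. It was -0.65 in the mock arrays and -0.23 in the dexamethasone arrays by the titles, and -0.269 without the wild type mock array.

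TET5 and TET6 act redundantly in Arabidopsis to restrain the growth of leaves and roots, and both were close to the floor. TET6 had signals of 113 and 115 in wild type mock and dexamethasone, just above the floor, and of 41.2 and 69.1 in GR-REV, below it. It was therefore at least 1.25-fold lower in GR-REV. As with TET9, it entered the test only through its wild type arrays, and its adjusted p is not used. TET5 reached 205 in wild type mock and stayed below the floor elsewhere, at 75.6 in wild type dexamethasone, 55.4 in GR-REV mock and 83.2 in GR-REV dexamethasone. Its level in wild type mock was at least 2.24-fold above that on each other array. This rests on 1 array, the one that stood apart in 25S rRNA and in its share of signals over the floor, and the part of these in the result was not tested. TET5 was above the floor on too few arrays to be tested.

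**Figure D2:**
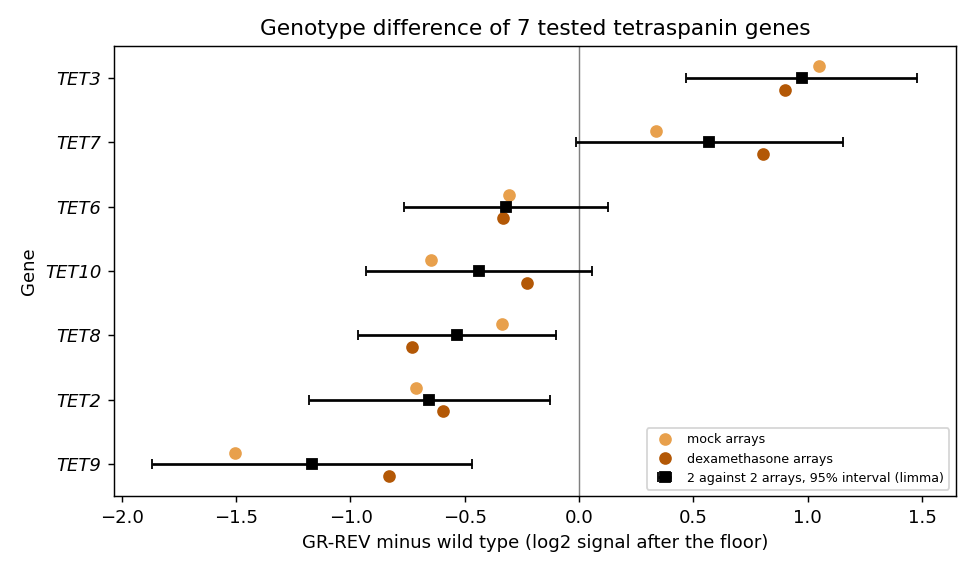
Genotype difference of the 7 tested tetraspanin genes (GR-REV minus wild type, log2 signal after the floor), with the limma estimate over 2 against 2 arrays as a black square and its 95% interval, the mock pair as a light and the dexamethasone pair as a dark orange point. TET3 and TET7 lie above 0 in both pairs and the other 5 below 0 in both. TET6 and TET9 are bounds, since their GR-REV signals were below the floor. Their intervals hold no spread among GR-REV flasks and support nothing.

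The 5 members measured above the floor on all arrays, of the 15 with a probe set, had genotype differences from -0.65 to 0.97 on the log2 scale with a median of -0.44. Over all 12252 probe sets of that kind the median was -0.01 and the quartiles -0.25 and 0.23. By their profiles over the 4 arrays, each centred on its own mean, TET2, TET8 and TET10 lay nearest to each other, with root mean square distances of 0.17 to 0.21 on the log2 scale. TET3 and TET7 were 0.38 apart, and TET2 and TET3 were farthest apart at 0.84. These distances describe 4 arrays and carry no test.

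**Figure D3:**
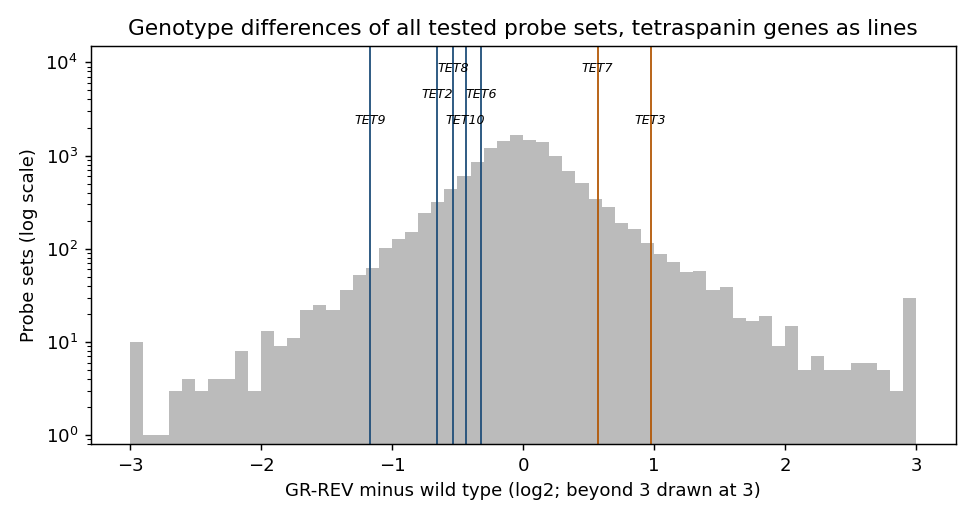
Genotype differences (GR-REV minus wild type, log2) of all 14034 tested probe sets as a grey histogram with a logarithmic count axis, and the 7 tested tetraspanin genes as lines, orange where higher and blue where lower in GR-REV. TET9 at -1.17 and TET3 at 0.97 lie toward the tails, and the other 5 nearer the centre.

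Of the 7 markers of other kinds that were tested for genotype, 1 was called, LHCB4.3. The guard cell markers FMA and CHX20, the 2 matched of 5 on that list, had a summed signal of 586 and 509 in wild type mock and dexamethasone and of 422 and 266 in GR-REV. Their genotype differences were -0.58 and -0.87 on the log2 scale, neither called in limma (adjusted p = 0.297 and 0.388). By the titles, CHX20 differed by -0.37 in the mock arrays and by -1.38 in the dexamethasone arrays, and FMA by -0.60 and -0.56. PYK10, a root beta-glucosidase and the only root marker tested, differed by 0.42 (adjusted p = 0.479). Among the green-tissue markers LHCB4.3, a light-harvesting antenna gene, fell by 2.71 ± 0.21 (SE) in GR-REV (adjusted p = 0.00963, limma), while LHCB4.1, LHCB4.2 and RCA differed by -0.22, 0.72 and -0.40 and were not called. The part of these and of the ubiquitin and GAPDH ratios in the tetraspanin differences was not tested.

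No tetraspanin gene measured above the floor in GR-REV seedlings differed by as much as 2-fold between dexamethasone and mock. TET5, TET6 and TET9 were below the floor on both GR-REV arrays, so such a difference could not be seen for them. Of the 5 members that exceeded the floor in that pair, 0 passed 2-fold, against 3.95% of all such probe sets. In wild type, TET5 alone of 8 did, being lower with dexamethasone, against 3.46% of probe sets. TET5 is a member only through its wild type mock array, so this count supports nothing. Of all probe sets past 2-fold in wild type, 126 were higher and 381 lower. That split depends on the scaling, with 212 higher and 249 lower after quantile normalization and 310 and 176 after division by the median. With 1 array per group neither comparison has a replicate check or a test.

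Within GR-REV, TET7 had the widest difference of the 5, 0.54 on the log2 scale or 1.46-fold higher with dexamethasone by the titles, above 92.8% of the probe sets measured on all arrays. By the source names it was -0.54, lower with dexamethasone. In wild type it was 0.08. TET3 differed by -0.33 in GR-REV and by -0.19 in wild type, the latter becoming 0.03 when arrays were divided by their medians. That scaling moves the median wild type difference of all such probe sets from -0.06 to 0.15. For TET2 the GR-REV difference was 0.18 and the wild type one 0.06. TET8 differed by -0.26 in GR-REV against 0.13 in wild type, and TET10 by 0.08 and -0.34. TET9 was 1.60-fold lower with dexamethasone in wild type and below the floor in both GR-REV arrays. TET6 differed by 0.02 in wild type and was likewise below the floor in GR-REV. All of these differences but those of TET5 and TET9 were under 1.5-fold.

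**Figure D4:**
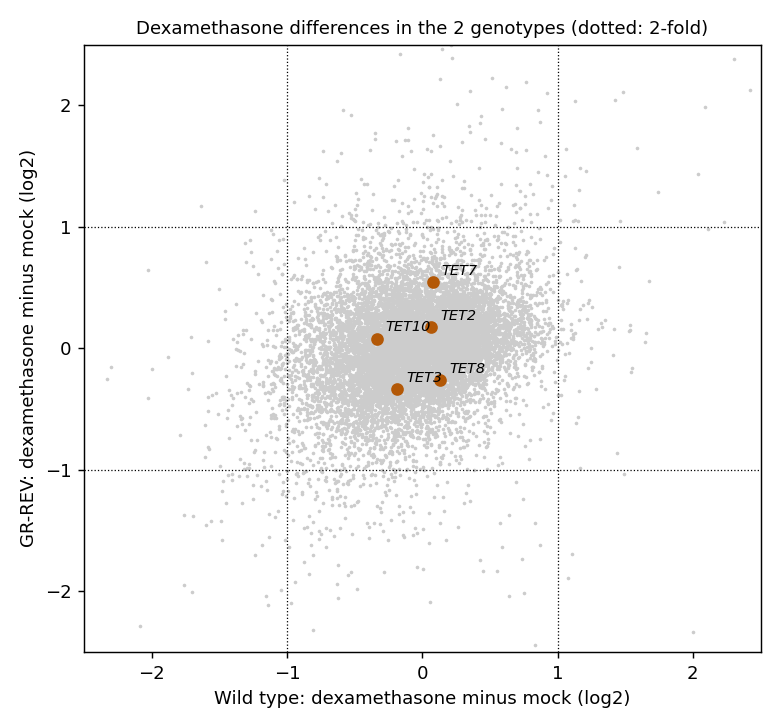
Difference between dexamethasone and mock (log2) in wild type (horizontal axis) and in GR-REV (vertical axis) for the 12245 of 12252 probe sets exceeding the floor on every array that fall within the axes (grey) and for the 5 tetraspanin genes among them (orange), with 2-fold marked by dotted lines. All 5 genes lie inside the 2-fold lines, and TET7 is the highest of them on the GR-REV axis at 0.54.

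Over both genotypes, the limma test of treatment with genotype as a term called 0 of 7 members, and 0 at an unadjusted p under 0.05. Among all 14034 probe sets tested it called 0.0428%, and 11.5% had an unadjusted p under 0.05. Among the 5 members above the floor on all arrays, the widest treatment differences were TET7 at 0.31 ± 0.19 (SE) and TET3 at -0.26 ± 0.17, with adjusted p of 0.569 and 0.595 in limma. In this test a response of 1 genotype alone counts as error. TET6 and TET9 had both GR-REV values set to the floor, so a difference within GR-REV could not be seen for them.

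The neighbours of the members with the widest genotype differences were read in the order of locus tags, taking the 3 nearest tested genes on each side. TET9 (AT4G30430) lies on chromosome 4. The nearest tested genes after it, AT4G30450 and AT4G30460, were also lower in GR-REV. AT4G30450 had signals of 883 and 622 in wild type mock and dexamethasone and of 393 and 259 in GR-REV, a difference of -1.22 ± 0.30 (SE, adjusted p = 0.132, limma). AT4G30460 had 365 and 229 on the wild type arrays and 79.3 and 69.3 on the GR-REV arrays, below the floor, a difference of -1.66 as a bound. Like TET9, AT4G30460 entered the test only through its wild type arrays, and its adjusted p is not used. The next gene, AT4G30470, differed by -0.02, and the 3 genes before TET9 by 0.08, -0.32 and 0.03. None of the 6 was called. Around TET3 (AT3G45600) on chromosome 3, which was added after its values were seen, none of the 6 neighbours was higher in GR-REV to a like degree. They lay between -0.90 and 0.01, with AT3G45260 at -0.90 ± 0.30 (adjusted p = 0.218, limma) the lowest.

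**Figure D5:**
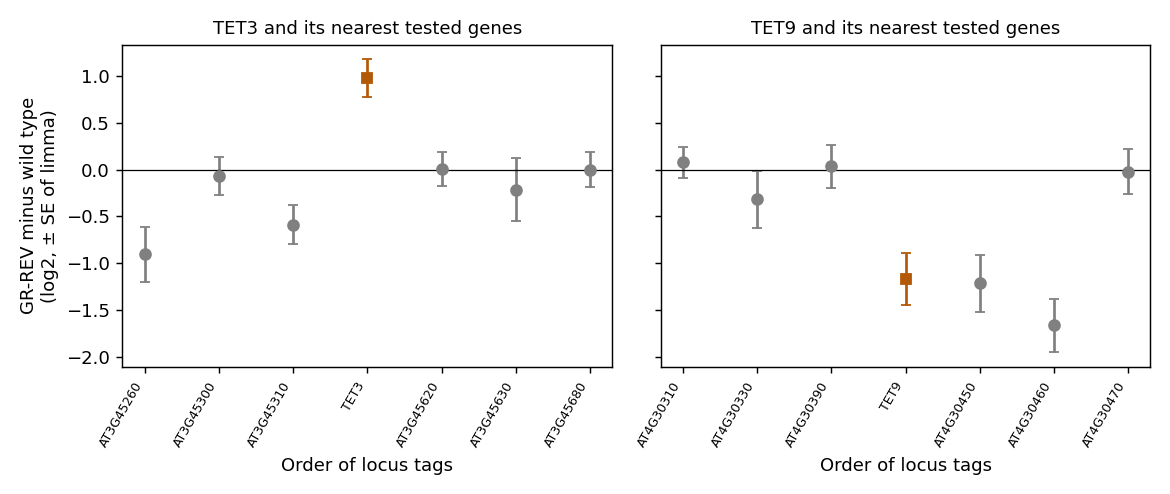
Genotype difference (GR-REV minus wild type, log2, with the SE of limma) of TET3 and TET9 (orange squares) and of the 3 nearest tested genes on each side in the order of locus tags (grey points). TET9 and the 2 genes after it lie between -1.17 and -1.66, and TET3 at 0.97 stands above its neighbours. TET9 and AT4G30460 are bounds, since their GR-REV signals were below the floor, and their SE holds no spread among GR-REV flasks.

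The genes whose profile over the 4 arrays was most like that of TET9, the member with the widest range, were AT3G11320, AT5G03490 and AT5G27730, at root mean square distances of 0.05, 0.06 and 0.06 on the log2 scale. Both GR-REV values of TET9 are the floor, so its range is a bound and these distances are to a profile that is flat in GR-REV by construction. AT5G27730 had signals of 1049 and 716 in wild type mock and dexamethasone and of 366 and 359 in GR-REV. Of the 6517 probe sets compared, which have 1 gene and lie above the floor on all arrays, 7 were within a distance of 0.1. TET3 was added after its values were seen, and its nearest were AT4G18280, AT4G19880 and AT5G24460, at 0.04, 0.05 and 0.05, with 21 probe sets within 0.1. AT4G19880 had 2156 and 1812 in wild type mock and dexamethasone and 4672 and 3621 in GR-REV. With 4 arrays such likeness is a description of these flasks.

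Few genes of related pathways could be matched to a probe set. Of 30 gene names listed for vesicle secretion and extracellular vesicles, 3 were matched, all of the endosomal route by which vesicles form. They were ARA6, a plant-specific Rab GTPase of endosomes, VPS2.1, an ESCRT-III subunit, and VPS46.2 (CHMP1A on the list), an ESCRT-related protein. None was called in limma, with 0 higher and 0 lower, and their genotype differences were 0.24 ± 0.16, -0.30 ± 0.15 and -0.25 ± 0.18 (SE) on the log2 scale. Of 23 names for leaf veins and auxin transport, 2 were matched. PHV, an HD-ZIPIII gene related to REVOLUTA, differed by 0.17 ± 0.25 (SE, adjusted p = 0.795, limma), and BRL1, a brassinosteroid receptor of vascular cells, was below the floor on all arrays. None of the 26 plasmodesmata names and none of the plasma membrane aquaporins was matched, so they were not analysed here.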

How the data were processed

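Signal intensity was deposited by the authors as 1 value per probe set of the ATH1 array on a linear scale, made with MAS5 per the submitters' processing notes; its version is not given in the sources used here. On the 4 arrays, the 2% trimmed mean lay at 500.05 to 500.06, so no further scaling was applied. The other deposited files hold instrument settings (unit: other), per the file headers; since every array ran in a separate fluidics module, an effect of the module cannot be told apart from the group. Control probe sets, 64 of 22810, were left out. Signals were set to at least the floor of 91.4 before log2, and a fold against the floor is given as "at least". The platform's annotation gave gene names, updated through the RefSeq table of assembly TAIR10.1 (13436 of 13513 matched). Of the other probe sets, 503 had several genes and 8730 none listed.

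Genotype and treatment were fitted with limma 3.58.1 (lmFit and eBayes with a trend, R 4.3.3) over all 14034 probe sets that exceeded the floor on 2 or more arrays, with 2 and 1 residual degrees of freedom and Benjamini-Hochberg adjustment, and the script was tested on simulated data. Other values used Python 3.11.15 and pandas 2.3.3. The labels name 1 flask per group. In the genotype test with treatments pooled, p-values measure the spread between the mock and dexamethasone arrays of a genotype, response to treatment included. With both factors in the fit, the 1 residual degree of freedom left is the difference in response between the genotypes. The eBayes step also draws each variance toward that of all probe sets (5.64 total degrees of freedom for genotype). The number of arrays limits the precision. All 8 members were named with all values, and neighbours, likeness and pathway lists followed rules stated beside them. Members, lists and rules were chosen with earlier results of these data known. Alternatives were another floor (25th or 60th percentile), the floor added to each signal, quantile or median scaling, other filters, each array left out, treatment as a term, 3-fold, and the source names.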

Additional observations from a re-analysis of the deposited data

Results flagged for a closer look

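The signs of the dexamethasone differences were opposite between genotypes for 2 tetraspanin genes measured on every array. TET8 differed by -0.26 on the log2 scale in GR-REV and by 0.13 in wild type. TET10 differed by 0.08 in GR-REV and by -0.34 in wild type. With 1 array per group the difference between the genotypes was not tested, and all 4 values are under 1.5-fold. The wild type value of TET8 was 0.05 after quantile normalization and 0.34 after division by the median, and that of TET10 -0.31 and -0.13. The response in GR-REV minus that in wild type lay above 15.9% of probe sets measured on all arrays for TET8. For TET10 this was 77.9%, and for TET7, whose signs were alike, 80.8%. With the treatments of the source names, the signs within TET8 and within TET10 are alike, and those of TET2, TET3 and TET7 become opposite instead. The share of all probe sets with opposite signs is not given here, so the count describes these genes only.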

How the results depend on the processing

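The sign of the genotype difference was kept for TET2, TET3, TET6, TET7, TET8, TET9 and TET10 under every alternative in which they were fitted, 82 values in all, and 80 of these also kept their side of the threshold. Part of this was fixed in advance, as another filter, treatment as a term or the source names cannot change the fitted difference. TET6 and TET9 had GR-REV values set to the floor in most settings, where the sign could only be negative. With treatment as a term 2 members were called, TET3 and TET9, against 7.1% of all probe sets, where the test without it called 0. With the source names in that term 0 were, against 3.23% of all. TET9 entered the test only through its wild type arrays, so its call supports nothing. No member was called under another floor, scaling or filter, or without any 1 array (0 to 0). Leaving out an array leaves 1 genotype with a single array, assumed to vary like the other, and without either wild type array TET6 and TET9 were not fitted, leaving 5 members. The count of members whose genotypes did not overlap was 7; it stayed 7 under the other scalings, the lower floor and the floor value added, against 42.0% to 46.4% of probe sets, and was 4 when the 60th percentile served as floor, against 29.8%, which sets TET2, TET5, TET6 and TET9 to the floor on all arrays, and 7 to 8 without any 1 array, against 66.0% to 75.9% of all probe sets with 3 arrays. The alternatives for this count, and the source names with treatment as a term, were chosen after seeing the data. In wild type, 0 members were 2-fold apart when the 60th percentile served as floor, 0 with the floor value added and 0 at 3-fold, where TET5 falls short. Of 88 dexamethasone values of single genes, 69 moved by less than the residual SD of limma. Some of these are 0 because both arrays were set to the floor. TET5 in wild type, the only value past 2-fold, kept its sign except where the 60th percentile as floor made it 0. As TET5 is a member only through wild type mock, its sign there supports nothing. With the source names every GR-REV difference other than 0 turned its sign. Over all probe sets, 249 genotype calls became 427 with division by the median, 418 with the floor value added, 997 with treatment as a term (453 with the source names), 30 with no filter, 81 without wild type dexamethasone and 114 without wild type mock. The 6 treatment calls (4 higher, 2 lower) became 418 (222 and 196) with division by the median, 84 (26 and 58) after quantile normalization, 62 (25 and 37) when the 25th percentile served as floor, 2 with the floor value added and 0 with no filter or the source names. Each gene had 1 probe set, so single probe sets could not be compared. No paired analysis by replicate number was possible because the labels give no replicate numbers. Signals near the floor limit TET5, TET6 and TET9.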
